A study of Mus musculus with 6 samples.

Results

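The genes of cholesterol synthesis, sensing, uptake, lysosomal release, efflux and esterification were followed in tumour macrophages of mice with and without a myeloid deletion of Trmt61a. They were chosen by name, as a list of 35 genes among the 21878 in the deposited count table, and all 35 had enough reads to be among the 12136 genes tested. The list divides by role into 8 genes of the mevalonate pathway, 11 genes from squalene to cholesterol, 5 genes of sterol sensing, 2 genes that act on uptake, 5 genes of lysosomal release and transport, and 4 genes of efflux and esterification. Ch25h, a hydroxylase, is counted with the last group.

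Trmt61a encodes the catalytic subunit of a tRNA methyltransferase that makes methyladenosine. The KO libraries (n = 3) came from Trmt61a f/f LysmCre mice, in which the Cre is expressed from the lysozyme M locus in myeloid cells, and the WT libraries (n = 3) came from Trmt61a f/f mice without it. All mice carried tumours of the MC38 line, a mouse colon carcinoma, injected 14 days before collection, and macrophages were sorted by flow cytometry. RNA was then read by bulk sequencing with a stranded mRNA library kit. The sources used here do not give the age or sex of the mice, the floxed exons, the sorting gate or whether each library came from its own mouse. The p-values therefore reflect only how much the libraries of a group differ, part of which may be technical. Lysozyme M Cre is also active in neutrophils, and its deletion in tumour macrophages need not reach every cell.

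Cells make cholesterol from acetyl-CoA through mevalonate, isoprenyl diphosphates, squalene and lanosterol. When sterol in the endoplasmic reticulum is low, SCAP carries the transcription factor SREBP2 to the Golgi, where it is cut and released to switch on the synthesis genes together, whereas INSIG proteins hold the complex back when sterol is plentiful. Macrophages also take up large amounts of cholesterol in lipoproteins and dead cells, free it in the lysosome, store it as ester and export it through ABC transporters whose genes are switched on by the sterol-sensing LXR receptors.

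The SREBP response is written in promoter sequence, and the windows of 250 bases before to 50 bases after each transcription start (RefSeq, GRCm38.p6) were available for 28 of the 35 genes. They were searched on both strands for the letters TCACNCCAC, a form of the sterol response element that SREBP binds. The letters were found in 2 of these 28 genes, or 7.14%, against 388 of 27025 genes with such a window, or 1.44%. Those with a match are shown because Hmgcs1 is the only synthesis gene of the 16 with a window that held it, and Stard3 the only other member. Capitals mark the match, which begins 137 bases before the start of Hmgcs1 (chr13:119690101-119690400, plus strand) and 211 bases before that of Stard3 (chr11:98358118-98358417, plus strand), on the plus strand of the gene in both.
Hmgcs1: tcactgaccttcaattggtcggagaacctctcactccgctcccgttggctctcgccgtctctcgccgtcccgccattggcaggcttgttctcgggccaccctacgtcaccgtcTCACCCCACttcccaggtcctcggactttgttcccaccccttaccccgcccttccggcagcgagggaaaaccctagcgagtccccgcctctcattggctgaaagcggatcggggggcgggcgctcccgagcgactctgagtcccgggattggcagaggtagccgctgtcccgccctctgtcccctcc
Stard3: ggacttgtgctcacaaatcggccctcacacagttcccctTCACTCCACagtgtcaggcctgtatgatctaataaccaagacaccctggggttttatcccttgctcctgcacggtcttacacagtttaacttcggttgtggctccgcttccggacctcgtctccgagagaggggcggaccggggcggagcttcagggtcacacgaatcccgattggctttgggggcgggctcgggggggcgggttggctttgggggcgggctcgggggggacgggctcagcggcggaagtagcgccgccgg
A match is a description of letters and not a measured site. The direct repeat named DR4, which LXR binds, was searched in its exact consensus letters on both strands and was in none of the 28 member windows and in 4 of all 27025 (0.0148%). No match says only that those exact letters are not in this window.

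Totals ran from 18839026 to 20313597 counts in KO libraries and from 19622763 to 20247004 counts in WT libraries. Trmt61a had 41, 33 and 50 counts in KO and 157, 138 and 148 counts in WT, so every library followed its label (log2 fold change -1.81, SE 0.197, edgeR adjusted p = 0.0426). Its adjusted p was 3.6e-10 with DESeq2 and 0.0522 with limma-voom, which did not call it. All 10 macrophage markers looked for, among them Adgre1, Cd68 and Mertk, were present, and they summed to 10771 to 11634 CPM (counts scaled to a common library size after TMM) in KO and 11002 to 12252 CPM in WT. KO replicate 2 and WT replicate 1 lay at opposite ends of the first principal component. Of 7 carcinoma markers, Cldn4 was at 0 in every library and 5 others, Epcam and the keratins, did not exceed 10 counts in any library. Fibroblast markers were present at 198 to 292 CPM in KO and 200.5 to 317 CPM in WT as a sum over 6 genes.

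The transcripts of this pathway were present at very different levels. Per kb of merged exons, Npc2, the small lysosomal carrier of cholesterol, had the highest level with 187 ± 13.2 CPM per kb in KO and 197 ± 13.0 CPM per kb in WT (SD, n = 3 each). Abca1, which exports cholesterol to apolipoprotein A-I, followed with 85.8 ± 13.4 CPM per kb in KO and 79.7 ± 4.30 CPM per kb in WT. Insig1, which encodes a brake on SREBP processing, had 65.9 ± 3.47 CPM per kb in KO and 59.0 ± 10.7 CPM per kb in WT. Among these 3 genes the order was the same in both genotypes, and the ranges of mean ± SD did not meet within a genotype.

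Srebf2, Hmgcs1 and Cyp51 came next, with 34.4 ± 1.84, 33.7 ± 3.81 and 27.7 ± 2.91 CPM per kb in KO and 35.3 ± 3.68, 31.4 ± 6.28 and 28.4 ± 6.70 CPM per kb in WT. Neighbours in this order overlapped within their SD in both genotypes, so their order is not resolved. The lowest levels were those of Tm7sf2, a sterol reductase, at 1.53 ± 0.359 CPM per kb in KO and 1.55 ± 0.214 CPM per kb in WT, and of Lss, which closes squalene epoxide into lanosterol, at 2.18 ± 0.0620 CPM per kb in KO and 2.55 ± 0.570 CPM per kb in WT. Merged exons count every annotated transcript form, so a gene with long rare forms is given too low a level per length.

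**Figure D1:**
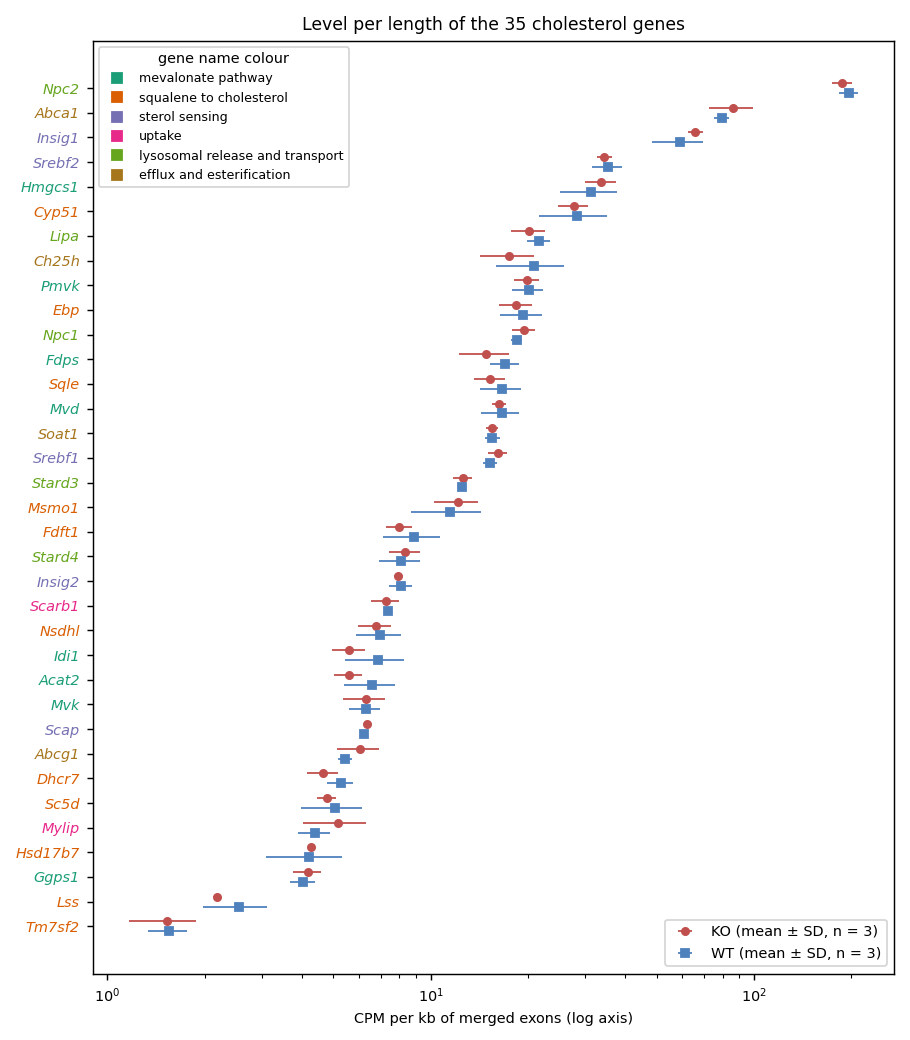
Level of each of the 35 genes per kb of merged exons (log axis), with KO above WT in each row, points at the mean and bars at 1 SD of 3 libraries. Npc2, Abca1 and Insig1 lie above 50 CPM per kb in both genotypes, and KO and WT bars overlap for most genes.

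Between genotypes, no gene of the list passed the test. At a Benjamini-Hochberg adjusted p under 0.05, edgeR called 0 of 35 members, against 2 of 12136 genes tested (0.0165%). At an unadjusted p under 0.05 there were also 0 of 35 members, against 840 of 12136 genes (6.92%), made up of 3.86% higher and 3.06% lower in KO. The KO and WT libraries overlapped for all 35 members, whereas they did not overlap for 12.4% of all genes tested, 6.11% with KO higher and 6.3% with KO lower. DESeq2 called 0 members, against 0.27% of the genes it gave an adjusted p, and limma-voom called 0, against 0.00824%. The smallest adjusted p among members was 0.730 with edgeR, 0.819 with DESeq2 and 0.739 with limma-voom.

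Of the 35 members, 12 share annotated exon sequence with another gene, 3 on the same strand and 10 on the opposite strand. The sources used here do not give the strand setting of the counting, so the values of Hmgcs1, Idi1, Fdps, Ggps1, Fdft1, Lss, Cyp51, Tm7sf2, Srebf1, Scap, Npc1 and Ch25h are uncertain to that extent.

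The data bound, gene by gene, how large a difference could have gone unseen. Each 95% interval holds for 1 gene on its own and not for the 35 jointly. The intervals may be too narrow if libraries did not come from separate mice. The 95% interval of the log2 fold change lay within 1 in either direction, a doubling or its inverse, for all 35 members, and within 0.5 for 29 of them. Among all genes tested it lay within 1 for 10809 and within 0.5 for 7977 of 12136. The interval that reached farthest down belonged to Ch25h, at a fold of 0.620, and the interval that reached farthest up belonged to Mylip, at a fold of 1.52. A p that misses the threshold does not show that a gene was at the same level in KO and WT. These are bulk libraries, in which fewer cells of a type and less RNA per cell cannot be told apart.

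**Figure D2:**
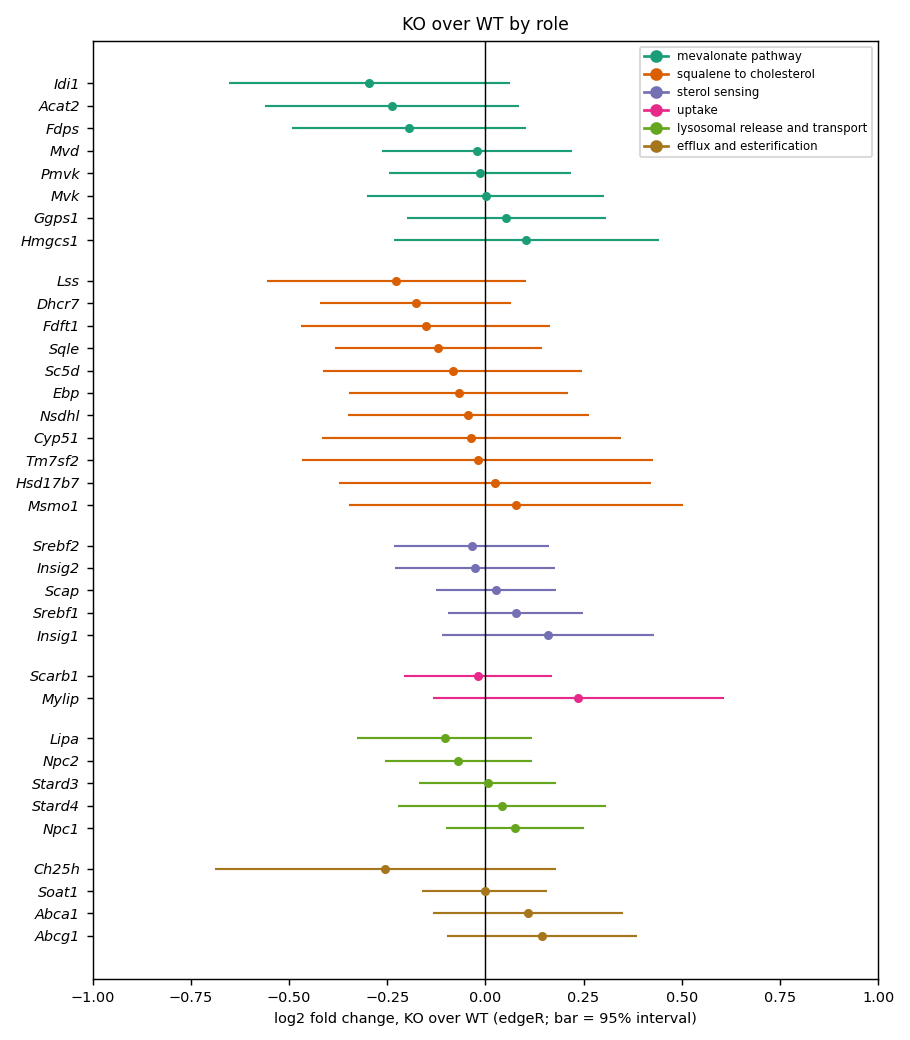
Log2 fold change of KO over WT for each member, ordered by role, with the 95% interval of edgeR as a bar. Every interval includes 0, and the narrowest belong to Scap, Soat1 and Srebf1.

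The mevalonate pathway runs from acetyl-CoA to the isoprenyl diphosphates. Of its 8 genes, 5 had a negative and 3 a positive log2 fold change, with a median of -0.018, against a median of -8.8e-04 over all genes tested. Idi1, the isomerase that makes dimethylallyl diphosphate, had 17.0, 20.9 and 21.0 CPM in KO and 18.3, 26.6 and 27.3 CPM in WT. The KO values lay at or below 21.0, but WT replicate 1 fell among them (log2 -0.30, SE 0.159, edgeR adjusted p = 0.730). Its log2 value was -0.46 without WT replicate 1 and -0.20 without WT replicate 3. Acat2, the thiolase that joins acetyl-CoA units, had 12.8, 15.6 and 14.2 CPM in KO and 13.8, 19.7 and 16.7 CPM in WT. Its groups overlapped as well (log2 -0.24, SE 0.145, edgeR adjusted p = 0.759), and the log2 value was -0.36 without WT replicate 1 and -0.098 without WT replicate 2.

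Hmgcs1, the HMG-CoA synthase whose promoter window holds the matched letters shown above, was the most abundant gene of this branch per length. It had 138, 153 and 173 CPM in KO and 113, 170.4 and 149 CPM in WT (chromosome 13, 119690379 to 119708260, plus strand, GRCm38). The highest value was in KO replicate 3 and the lowest in WT replicate 1, and the estimate was slightly positive (log2 0.10, 95% interval -0.23 to 0.44). Fdps, which makes farnesyl diphosphate, had 50.4, 65.4 and 71.8 CPM in KO and 63.5, 78.1 and 73.1 CPM in WT. KO replicate 1 was the lowest library for this gene, and the interval ran from -0.49 to 0.10. The log2 value of Fdps, -0.19, was -0.062 without KO replicate 1, -0.31 without KO replicate 3 and -0.12 without WT replicate 2. The kinases Mvk and Pmvk and the decarboxylase Mvd, which turn mevalonate into isopentenyl diphosphate, had log2 values of 3.0e-04, -0.013 and -0.022. Ggps1, which takes the branch to geranylgeranyl diphosphate for protein prenylation, was at 0.053 with an interval from -0.20 to 0.31.

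From squalene to cholesterol, 9 of 11 genes had a negative log2 value and 2 a positive one, with a median of -0.067. Dhcr7, a reductase of the last steps, had 24.2, 26.9 and 30.1 CPM in KO and 27.4, 33.0 and 31.4 CPM in WT. Only KO replicate 3 lay above the lowest WT library (log2 -0.18, SE 0.109, edgeR adjusted p = 0.759), and the log2 value was -0.10 without KO replicate 1 and -0.11 without WT replicate 2. Lss had 23.6, 22.8 and 24.1 CPM in KO and 21.3, 33.6 and 27.7 CPM in WT. The KO libraries sat within a narrow band that the WT libraries bracketed (log2 -0.23, SE 0.147, edgeR adjusted p = 0.780). The value for Lss was -0.38 without WT replicate 1 and -0.052 without WT replicate 2.

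Sqle, the squalene epoxidase and a step at which flux is controlled, had 77.4, 81.7 and 95.4 CPM in KO and 77.8, 104 and 94.6 CPM in WT. Its interval ran from -0.38 to 0.14 on the log2 scale, and the low library of each group was replicate 1. The log2 value of Sqle, -0.12, was -0.058 without KO replicate 1, -0.21 without KO replicate 3, -0.23 without WT replicate 1 and -0.017 without WT replicate 2. Cyp51, the lanosterol demethylase, had 113, 117 and 137 CPM in KO and 93.6, 152 and 130.1 CPM in WT. Hsd17b7, a ketoreductase of the demethylation complex, had 21.6, 21.4 and 22.4 CPM in KO and 15.1, 26.0 and 23.3 CPM in WT. For Cyp51 and Hsd17b7 the WT libraries held both the lowest and the highest of the 6 values, and the log2 values were -0.036 and 0.023.

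Fdft1, the squalene synthase that commits the pathway to sterols, averaged 33.8 ± 3.06 CPM in KO and 37.6 ± 7.61 CPM in WT (SD, n = 3 each). Msmo1, the oxidase that starts removal of the methyl groups of lanosterol, averaged 74.5 ± 11.4 CPM in KO and 70.6 ± 17.1 CPM in WT. Nsdhl, its partner in that removal, averaged 19.3 ± 2.27 CPM in KO and 19.9 ± 3.15 CPM in WT. The differences of these 3 genes were smaller than the SD of either group for Msmo1 and Nsdhl, and smaller than that of WT for Fdft1. Ebp, Sc5d and Tm7sf2, an isomerase, a desaturase and a reductase of the sterol rings, had log2 values of -0.067, -0.083 and -0.020. Ebp differed from the other synthesis genes in that its lowest library was WT replicate 3 and its highest WT replicate 1.

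Of the 5 genes of sterol sensing, 2 had negative and 3 positive log2 values, with a median of 0.027. Insig1 had 192, 213 and 207 CPM in KO and 151, 217 and 179 CPM in WT, and its log2 value was 0.16 (SE 0.120, edgeR adjusted p = 0.798). The 3 KO libraries lay inside the WT range. The value for Insig1 was 0.041 without WT replicate 1 and 0.31 without WT replicate 2. Srebf1, which encodes the SREBP1 factors of fatty acid synthesis, had 91.3, 97.0 and 84.4 CPM in KO and 82.8, 91.3 and 84.4 CPM in WT (log2 0.077, SE 0.0774, edgeR adjusted p = 0.843). Here the groups overlapped over most of their range, and the log2 value was 0.027 without KO replicate 2, 0.13 without KO replicate 3, 0.050 without WT replicate 1 and 0.13 without WT replicate 2.

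Srebf2, the gene of the SREBP2 factor itself, had 233, 252 and 258 CPM in KO and 225, 277 and 258 CPM in WT, with an interval of -0.23 to 0.16. Scap, the escort of SREBP, had 48.1, 47.5 and 46.2 CPM in KO and 45.6, 47.6 and 46.1 CPM in WT. Its highest library was only 1.06 times its lowest, the smallest such ratio of the 35 members. Insig2, the second brake protein, averaged 27.6 ± 0.879 CPM in KO and 28.1 ± 2.33 CPM in WT (SD, n = 3 each). All 5 sensing genes had their lowest value in WT replicate 1.

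Of the genes that act on uptake, Scarb1 encodes the HDL receptor SR-BI and Mylip the ubiquitin ligase IDOL, an LXR target that sends lipoprotein receptors for degradation. Scarb1 had 55.1, 67.4 and 62.8 CPM in KO and 63.3, 63.7 and 60.8 CPM in WT, and the WT libraries lay within the KO range (log2 -0.019, SE 0.0845, edgeR adjusted p = 0.963). Mylip had 16.4, 20.5 and 13.2 CPM in KO and 14.9, 15.2 and 12.3 CPM in WT. KO replicates 1 and 2 were above every WT library and KO replicate 3 was not (log2 0.24, SE 0.165, edgeR adjusted p = 0.788). Its log2 value was 0.062 without KO replicate 2, 0.39 without KO replicate 3 and 0.15 without WT replicate 3.

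Cholesterol taken up as ester is freed in the lysosome by Lipa, the acid lipase, and handed from NPC2 to the membrane protein NPC1. Lipa had 117, 148 and 144 CPM in KO and 149, 157 and 134 CPM in WT, with KO replicate 1 lowest (log2 -0.10, SE 0.0999, edgeR adjusted p = 0.843). The value for Lipa was -0.0066 without KO replicate 1, -0.17 without KO replicate 2, -0.046 without WT replicate 2 and -0.16 without WT replicate 3. Npc1 had 237, 221 and 202 CPM in KO and 211, 216 and 199.6 CPM in WT, and KO replicate 1 was highest (log2 0.075, SE 0.0784, edgeR adjusted p = 0.850). The value for Npc1 was 0.018 without KO replicate 1, 0.14 without KO replicate 3 and 0.043 without WT replicate 3. Npc2 averaged 1019 ± 72.0 CPM in KO and 1069 ± 70.8 CPM in WT, a difference smaller than either SD. Stard3, a sterol carrier of late endosomes, was at log2 0.0061, and Stard4, a cytosolic sterol carrier induced with the synthesis genes, was at 0.041. Over the 5 genes the median log2 value was 0.0061, with 2 negative and 3 positive.

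Of the 4 genes of efflux and esterification, 2 had negative and 2 positive log2 values, with a median of 0.053. Abcg1, which exports cholesterol to HDL, had 37.3, 50.3 and 44.4 CPM in KO and 39.6, 41.8 and 37.9 CPM in WT. KO replicates 2 and 3 were above every WT library, but KO replicate 1 was the lowest of all 6 (log2 0.14, SE 0.108, edgeR adjusted p = 0.795). The value for Abcg1 was 0.25 without KO replicate 1 and 0.038 without KO replicate 2. Abca1, the other LXR-driven exporter, had 1050.1, 819.8 and 799 CPM in KO and 867, 830.5 and 779 CPM in WT (log2 0.11, SE 0.108, edgeR adjusted p = 0.843). KO replicate 1 alone stood above the WT libraries, and the log2 value was -0.029 without it.

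Soat1, the acyltransferase that esterifies cholesterol for storage, had 147, 159 and 149 CPM in KO and 146, 161 and 149 CPM in WT. The groups overlapped almost completely, and the interval ran from -0.16 to 0.16. Ch25h, an interferon-induced hydroxylase whose oxysterol product holds SREBP in the endoplasmic reticulum and activates LXR, had 27.6, 26.2 and 19.1 CPM in KO and 36.8, 24.1 and 26.1 CPM in WT. WT replicate 1 was the highest and KO replicate 3 the lowest library (log2 -0.25, SE 0.189, edgeR adjusted p = 0.798). The log2 value of Ch25h was -0.045 without WT replicate 1 and -0.10 without KO replicate 3.

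**Figure D3:**
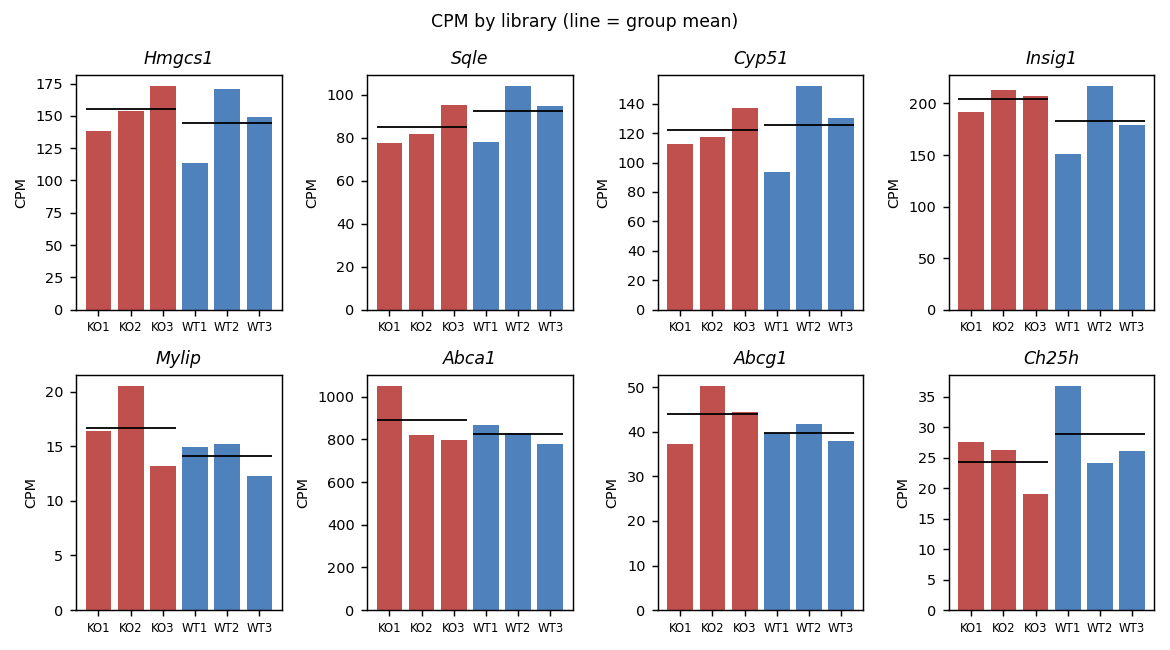
CPM of 8 members in each library, with KO bars left of WT bars and a line at each group mean; axes start at 0. Hmgcs1, Sqle, Cyp51 and Insig1 are low in WT replicate 1 and high in WT replicate 2, whereas Ch25h is highest in WT replicate 1 and Abca1 in KO replicate 1.

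Set side by side, the synthesis genes had a median log2 fold change of -0.043 over 19 genes, 14 of them negative, and the efflux and esterification genes had 0.053 over 4 genes. Of all genes tested, 50.2% were negative. Per library, the mean of the synthesis genes on a log2 CPM scale centred for each gene was -0.168, 0.0052 and 0.064 in KO and -0.204, 0.229 and 0.074 in WT. The corresponding values of efflux and esterification were 0.044, 0.072 and -0.122 in KO and 0.097, -0.016 and -0.074 in WT. They include Ch25h, which is a hydroxylase and neither an exporter nor an esterifying enzyme. Its own centred values reached 0.491 in WT replicate 1 and -0.453 in KO replicate 3. The log2 fold changes of Abca1, Abcg1 and Soat1 were 0.11, 0.14 and -0.0021, and that of Ch25h was -0.25. Neither branch separated the genotypes, since the KO libraries of synthesis lay inside the WT range and those of efflux and esterification overlapped with WT.

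The sign of the synthesis median rested on single libraries. It was -0.17 without WT replicate 1, 0.054 without WT replicate 2 and 0.014 without KO replicate 1. Without KO replicate 2, the library at 1 end of the first principal component, it was -0.093, and the efflux and esterification median was -5.3e-04, and without KO replicate 1 that median was -0.0049. The difference between the medians, synthesis minus efflux and esterification, was -0.096, with -0.23 without WT replicate 1 and 0.018 without KO replicate 1.

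The synthesis genes varied together between libraries of the same genotype. Among the WT libraries, replicate 1 was lowest for 17 of 19 synthesis genes and replicate 2 highest for 15 of 19, against 36.2% and 34.6% of all genes tested. Among the KO libraries, replicate 1 was lowest for 14 of 19 and replicate 3 highest for 14 of 19, against 33.1% and 34.6% of all genes. Over all 6 libraries the lowest value was in WT replicate 1 for 11 and in KO replicate 1 for 7 of the 19 genes, with Ebp the exception. The median over the synthesis genes of WT replicate 2 minus WT replicate 1 was 0.45 on the log2 scale. The span of the synthesis mean within WT, 0.432, was wider than the difference between genotypes of -0.066.

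The WT order, but not the KO order, was also seen in the sensing genes. All 5 sensing genes were lowest in WT replicate 1 and highest in WT replicate 2 among the WT libraries, by a median of 0.24 on the log2 scale. Among the KO libraries, replicate 1 was lowest for 2 of the 5 and replicate 3 highest for 2 of the 5. Stard4 had 41.4, 46.8 and 51.6 CPM in KO and 38.7, 51.8 and 45.4 CPM in WT, in the same library order as Hmgcs1 within each genotype. The 4 efflux and esterification genes went both ways, with WT replicate 2 minus WT replicate 1 at 0.14 for Soat1, 0.077 for Abcg1, -0.063 for Abca1 and -0.61 for Ch25h on the log2 scale. Soat1 had the same WT order as Hmgcs1. The genes of the list were chosen for their shared pathway, so this is a description of the libraries.

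**Figure D4:**
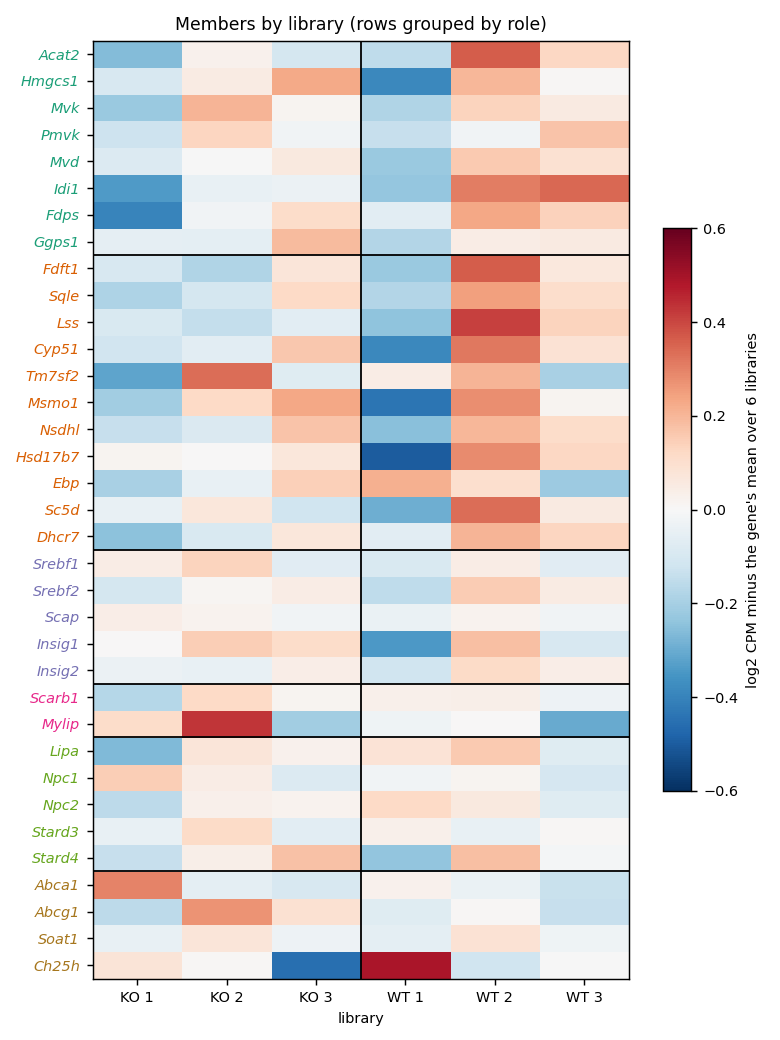
Log2 CPM of each member minus its mean over the 6 libraries, with rows in role order separated by lines and KO columns left of WT columns. In the synthesis rows WT replicate 1 is mostly blue (low) and WT replicate 2 mostly red (high), and KO replicate 1 is bluer than KO replicate 3, whereas the efflux and esterification rows show no common order.

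Markers of other cells were set beside this spread. The fibroblast sum was 198, 231 and 292 CPM in KO and 200.5, 317 and 222 CPM in WT, so it was lowest in replicate 1 of each genotype and highest in WT replicate 2 and KO replicate 3. The most abundant of its genes was Col3a1, with 96.9, 139 and 157 CPM in KO and 90.6, 189 and 119 CPM in WT. Other genes of the list did not all follow the order of the sum. Col1a1 was highest in WT replicate 1, with 8.41, 16.8 and 12.6 CPM in KO and 23.8, 13.6 and 10.1 CPM in WT. Among the KO libraries Col1a2, Dcn and Pdgfra were lowest in replicate 2 and highest in replicate 3. Among the WT libraries they were highest in replicate 2, with Col1a2 lowest in replicate 3. The macrophage sum was highest in WT replicate 1, with 11140, 11634 and 10771 CPM in KO and 12252, 11683 and 11002 CPM in WT. Cdh1, which was put on the carcinoma list by name, had 111, 134 and 117 CPM in KO and 76.7, 141 and 127 CPM in WT. It had 1503 to 2803 counts a library, whereas the other 6 markers of that list did not exceed 10 counts in any library. The values of Cdh1 alone therefore do not measure carcinoma cells. The part of fibroblasts or other cells in the spread of the synthesis genes was not tested. The proliferation list of 7 genes summed to 808 to 951 CPM in KO and 972 to 1055 CPM in WT, without overlap. Gene by gene, the KO libraries lay below the WT libraries for 3 of the 7, against 6.3% of all genes tested. Pcna, Ccnb1, Cdk1 and Mcm3 overlapped. With edgeR 0 of the 7 were called, and with DESeq2 Mki67 had an adjusted p of 0.0471. Neutrophil markers summed to 56.6 to 100.5 CPM in KO and 54.7 to 72.0 CPM in WT over 10 genes, and T and NK cell markers to 16.1 to 53.8 CPM in KO and 16.9 to 28.2 CPM in WT over 10 genes, both highest in KO replicate 2. Of 6 neutrophil genes tested, Mmp8 and Ltf had every KO library above every WT library, against 6.11% of all genes. An unadjusted edgeR p under 0.05 was reached by 3 of the 6, all higher in KO, against 3.86% of all genes. With edgeR 0 of the 6 were called, and Ltf had at most 25 counts in any library. Of 9 T and NK cell genes tested, 1 reached such a p and 0 were without overlap.

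**Figure D5:**
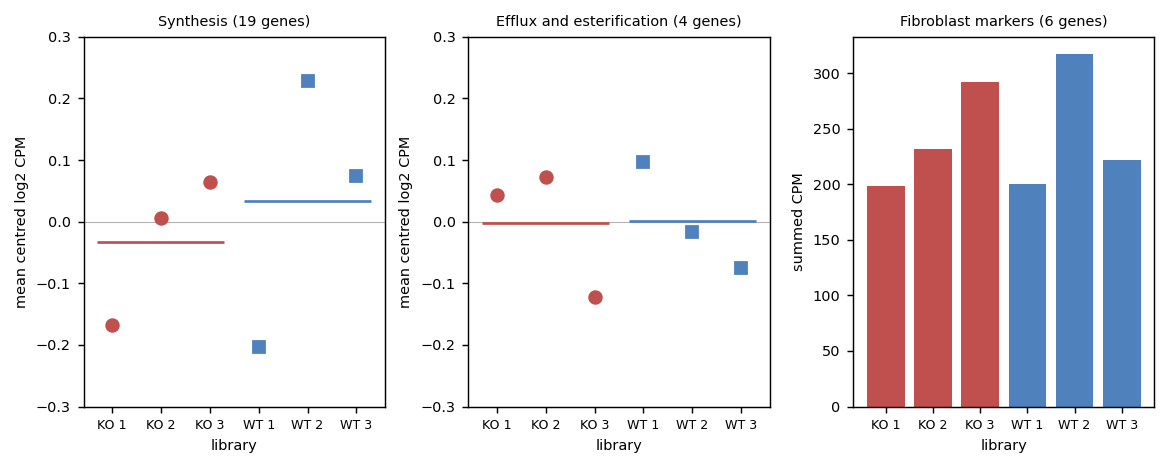
Mean centred log2 CPM of the synthesis genes and of the efflux and esterification genes in each library, with a line at the group mean, beside the summed CPM of 6 fibroblast markers; KO is left of WT. The synthesis values span 0.232 in KO and 0.432 in WT around group means of -0.033 and 0.033.

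Other genes of the pathway, from 5 further lists with 52 names, gave 49 tested genes, of which 29 were negative and 20 positive. With edgeR 0 of them were called. An unadjusted p under 0.05 was reached by 3 that were lower and 1 that was higher in KO, against 3.06% and 3.86% of all genes tested. The KO libraries lay below the WT libraries for 4 and above them for 2, against 6.3% and 6.11% of all genes. Among 13 other synthesis genes and SREBP targets, many of them of fatty acid synthesis, 12 were negative, with a median of -0.16. Of all genes tested, 50.2% were negative. Over all libraries the lowest value was in KO replicate 1 for 8 of these 13 genes, against 19.97% of all genes tested. The highest was in WT replicate 2 for 7 of the 13, against 13.1% of all genes tested. Whether the sign of this median rests on single libraries was not tested. Fads1, a fatty acid desaturase, had 96.5, 103 and 105 CPM in KO and 124, 118 and 120.3 CPM in WT, with no overlap (log2 -0.25, SE 0.0671, edgeR adjusted p = 0.701). Lbr, a sterol reductase that is also a receptor of the nuclear lamina, had 64.3, 64.2 and 73.9 CPM in KO and 81.1, 75.3 and 82.3 CPM in WT (log2 -0.24, SE 0.0803, edgeR adjusted p = 0.701). The KO libraries of Fads1 and Lbr were all below the WT libraries, and so were those of Elovl6, a fatty acid elongase singled out after its values were seen (log2 -0.28, edgeR adjusted p = 0.713).

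Plin2, which coats lipid droplets and is listed with the LXR and ester storage genes, had 553, 483 and 506 CPM in KO and 476, 382 and 369 CPM in WT. Each KO library was above each WT library (log2 0.33, SE 0.104), and the gene did not pass (edgeR adjusted p = 0.701). Rxrb, a partner receptor of LXR, was also without overlap, at 48.8 ± 0.773 CPM in KO and 44.1 ± 2.12 CPM in WT (log2 0.15, edgeR adjusted p = 0.725). The median of that list was 0.048 over 12 genes.

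Among 8 other lipoprotein receptors and their partners, Olr1, a receptor for oxidised LDL, had 24.6, 37.2 and 26.0 CPM in KO and 50.6, 38.2 and 40.1 CPM in WT. Each KO library was below each WT library, though KO replicate 2 lay close to WT replicate 2 (log2 -0.56, SE 0.172, edgeR adjusted p = 0.701). The list had 6 positive and 2 negative genes and a median of 0.10.

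The proteases that release SREBP, Mbtps1 and Mbtps2, were at log2 0.054 and -0.066, and the 7 tested genes of SREBP processing ran from -0.066 to 0.054. Of the other sterol transport genes, 9 were tested, with a median of 0.0051. Lamp2, a lysosomal membrane protein, was at -0.13 (595 ± 45.0 CPM in KO, 652 ± 34.5 CPM in WT), and Tmem241 was at -0.15. Neither passed, with edgeR adjusted p values of 0.758 for Lamp2 and 0.853 for Tmem241.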

How the data were processed

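The authors deposited raw read counts per gene, whole numbers that are not normalized. The submitters' processing notes name the tools HTSeq, HISAT2, Trimmomatic and Cufflinks and the build mm10. Their versions, the strand setting and the annotation are not given in the sources used here. Gene coordinates and merged exon lengths were taken from GENCODE M21 on GRCm38.

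Of 21878 genes, 6323 had 0 counts in all libraries. With filterByExpr (minimum count 10, minimum total 15) 12136 genes holding 99.962% of the counts were tested with edgeR 4.0.16 in R 4.3.3, using TMM factors, a robust quasi-likelihood fit and Benjamini-Hochberg adjustment over all tested genes. The SE is the log2 fold change divided by the square root of F. Per-library means of gene lists used log2 CPM with a prior count of 2. DESeq2 1.42.0 and limma 3.58.1 served as alternatives, with other scalings, filters, a replicate block and each library left out. The code was tested on simulated data.

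The members and lists were chosen with earlier results of these data known. Values in every library were to be given for the 2 members with the smallest p in each role, and up to 2 genes of each further list were to be named. The other members shown by library (Hmgcs1, Fdps, Sqle, Cyp51, Hsd17b7, Srebf2, Scap, Stard4, Abca1 and Soat1) were added after their values were seen. A gene that this rule would name in the list of lipoprotein receptors is not reported here.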

Additional observations from a re-analysis of the deposited data

How the results depend on the processing

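The count of members that passed was 0 under each of the alternatives, and the lowest adjusted p of any member in any of them was 0.363, for Mylip. Over all genes tested the count of calls was 2, and it was 1 with RLE factors, upper-quartile factors, library totals alone, no filter, limma-voom or the replicate block, 0 with a filter of at least 1 CPM in 3 libraries, 4 with limma-voom quality weights and 27 with DESeq2. Leaving out 1 library gave 0 to 5 calls, with 0 without KO replicate 1, KO replicate 3 or WT replicate 3, 1 without WT replicate 1 and 5 without KO replicate 2. The median log2 fold change was -0.17 to 0.054 for synthesis, -0.0049 to 0.084 for efflux and esterification and -0.23 to 0.018 for their difference as 1 library was left out. The cause of these shifts was not tested.

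The replicate block gave medians of -0.038 for synthesis and 0.048 for efflux and esterification. Same-numbered libraries correlated at -0.057, -0.094 and -0.11 in their deviations from the group means, and no library correlated best with its own number. The deviations cancel out over the libraries of a group, so these values cannot settle whether same-numbered libraries were handled together.

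Of the 35 members, 20 changed sign when some library was left out, 6 changed sign under another alternative and 15 never did. The log2 value of Mvk changed sign to -0.0023 with RLE factors, -0.0023 with DESeq2, -0.0049 with limma-voom, -0.085 with limma-voom quality weights, -0.0031 with the replicate block. The log2 value of Soat1 changed sign to 1.1e-04 with upper-quartile factors, 0.0019 with library totals alone, 0.0021 with no filter, 0.0056 with a filter of at least 1 CPM in 3 libraries. With limma-voom quality weights Msmo1 was at -0.0072, Hsd17b7 was at -0.018, Stard3 was at -0.010, Stard4 was at -0.0079. Leaving out 1 library at a time gave log2 ranges of -0.082 to 0.074 for Pmvk, -0.13 to 0.058 for Mvd, -0.21 to 0.13 for Cyp51, -0.22 to 0.12 for Tm7sf2, -0.16 to 0.054 for Nsdhl. The ranges were -0.18 to 0.028 for Ebp, -0.11 to 0.040 for Srebf2, -0.086 to 0.057 for Scarb1, -0.029 to 0.18 for Abca1, -0.039 to 0.047 for Soat1. The ranges were -0.11 to 0.10 for Mvk, -0.053 to 0.041 for Stard3, -0.031 to 0.095 for Ggps1, -0.094 to 0.26 for Msmo1, -0.058 to 0.15 for Stard4. The ranges were -0.041 to 0.25 for Hmgcs1, -0.17 to 0.19 for Hsd17b7, -0.28 to 0.014 for Fdft1, -0.23 to 0.086 for Sc5d, -0.089 to 0.032 for Insig2. The 15 members that kept their sign ranged from -0.36 to -0.098 for Acat2, -0.46 to -0.20 for Idi1, -0.31 to -0.062 for Fdps, -0.23 to -0.017 for Sqle, -0.38 to -0.052 for Lss, -0.26 to -0.10 for Dhcr7, 0.027 to 0.13 for Srebf1. The others of these ranged from 0.013 to 0.051 for Scap, 0.041 to 0.31 for Insig1, 0.062 to 0.39 for Mylip, -0.17 to -0.0066 for Lipa, 0.018 to 0.14 for Npc1, -0.12 to -0.012 for Npc2, 0.038 to 0.25 for Abcg1, -0.36 to -0.045 for Ch25h. With 3 libraries a group and a common biological coefficient of variation of 0.11, small differences were not detectable.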
